A study of Mus musculus with 1 sample.

Results

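Usage of the T cell receptor β-chain V segments TRBV1, TRBV2, TRBV3, TRBV4, TRBV5, TRBV12-1 and TRBV12-2 was measured in peripheral T cells of 1 vehicle-treated SCLC mouse. A contig is an assembled receptor transcript of 1 droplet barcode, and contigs were taken where the deposited table marks a cell, a productive chain, high confidence, the chain TRB and any of these 7 V labels. This gave 324 contigs in 323 barcodes, of 981 TRB contigs in 945 barcodes. The mouse was an autochthonous SCLC model on a C57BL/6 background, in which Rb1 and Trp53 are deleted in the lung after intratracheal Adeno-Cre, and it received PBS as vehicle. Red cells in 150 µl of blood were lysed, T cells were enriched by depleting the other cells, and receptor and gene expression libraries were made from the same droplets. Libraries of a combination-treated and of a healthy mouse were not analysed here.

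T cell receptor β chains are assembled in the thymus by joining a V, a D and a J segment, with bases trimmed from the ends and others added between them. The V segment encodes the loops CDR1 and CDR2, while CDR3 spans the join and is the most variable loop of the receptor. CD4 T cells recognise peptides on MHC-II and CD8 T cells recognise peptides on MHC-I, and each lineage keeps its coreceptor after leaving the thymus.

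Because the vehicle group was 1 library of 1 mouse, no test was run, and cells and contigs were not treated as replicates. Values in parentheses after a share are exact 95% Clopper-Pearson intervals and those after a UMI sum are exact Poisson intervals, where a UMI tags 1 captured RNA molecule. Both cover counting error only. For some counts of 0, the share that 3 counts would give is added as the share the count allows. Shares whose intervals overlap are described as such and were not taken to differ.

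Positions were taken from GENCODE vM39 on GRCm39 by Ensembl identifier, because the deposited expression matrix uses GRCm38 and no genome of that build was used here. All 7 genes lie on the plus strand of chromosome 6 upstream of Trbd1, which starts at 41510135. Trbv1 is the most distant at 40868163 to 40868819, 641.3 kb before Trbd1. Trbv2 (41024274 to 41024929), Trbv3 (41025224 to 41025762), Trbv4 (41036328 to 41036820) and Trbv5 (41039266 to 41039737) follow in this order. Trbv12-1 (41090484 to 41091001) and Trbv12-2 (41095785 to 41096298) lie closest to Trbd1, at 419.1 and 413.8 kb. In the older nomenclature kept by RefSeq, Trbv12-1 is Tcrb-V5.2 and Trbv12-2 is Tcrb-V5.1.

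The V segments differ in the germline bases that they bring to CDR3, and these ends are shown from the codon of the conserved cysteine to the last base of the V exon. They are GENCODE transcript sequences, 5′ to 3′, with capitals for the bases that at least 50% of the distinct productive rearrangements still carried.
TRBV1: TGCACCTGCAGTGCAGa
TRBV2: TGTGCCAGCAGCCAAga
TRBV3: TGTGCCAGCAGCTTagccaca
Trbv4: TGTGCCAGCAGCtaaga
TRBV5: TGTGCCAGCAGCCAAGa
TRBV12-1: TGTGCCAGCTCTCtc
TRBV12-2: TGTGCCAGCTCTCTc
The whole V end was kept in 21 of 58 TRBV1 rearrangements (36.2%), in 14 of 43 of TRBV2 (32.6%) and in 20 of 61 of TRBV5 (32.8%). TRBV12-2 kept its whole end in 22 of 45 rearrangements (48.9%) and TRBV12-1 in 12 of 41 (29.3%). The end of TRBV3, the longest with 21 bases, was trimmed in all 52 rearrangements. Trbv4 carries an in-frame TAA at bases 13 to 15 of this stretch, and none of its 53 productive rearrangements kept it, which the selection of productive contigs fixes.

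TRBV12-1 and TRBV12-2 are near copies, identical in 238 of 270 bases (88.1%) of the V region and in 74 of 90 residues (82.2%). They differ in both germline loops, shown here with capitals at the differing bases.
TRBV12-1 CDR1: tctggacatAGcAAt
TRBV12-2 CDR1: tctggacatCTcTCt
TRBV12-1 CDR2: cattatgaAaaGGtggag
TRBV12-2 CDR2: cattatgaTaaAAtggag
Of the remaining segments, TRBV2 and TRBV5 shared 62.2% of bases, and TRBV1 and TRBV5 43.7%.

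Labels and markers were checked first. Cd3e, a CD3 subunit found in T cells, had a UMI in 313 of the 323 member barcodes, Cd3g in 293 and Cd3d in 287. The B cell gene Ms4a1, the NK cell gene Ncr1 and the erythroid gene Hbb-bs had no UMI in any of them. Other genes of these cell types were found, with Cd79b in 16 and Cd79a in 3 (B cell). Klrb1c was found in 10 and Tyrobp in 7 (NK cell), and Hba-a1 in 5 (erythroid). The monocyte gene Lyz2 had UMIs in 11, the platelet gene Pf4 in 29 and Ighm, which encodes the IgM heavy chain, in 136 (42.1%). Ighm was found in 43.9% of all barcodes with a TRB contig as well, and its source was not tested. Ribosomal protein genes took under 10% of UMIs in 48 of the 323 member barcodes and in 138 of the 945. Of the 945 barcodes, 934 passed the UMI limit used for calling cells, and 36 carried more than 1 TRB contig.

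In 20 of 22 V labels the V region of the contigs was that of the named GENCODE segment. The label TRBV10 was an exception: all 58 contigs matched Trbv4 in 270 of 270 bases, against 66 identical bases of 92 aligned to the pseudogene Trbv10. No contig had the label TRBV4, and this 0 follows from the naming of the labels. RefSeq lists Tcrb-V10 as an older symbol of Trbv4. The TRBV10-labelled contigs were therefore not counted as members and are given beside them as Trbv4 sequences. In comparisons of members with other TRBV segments, they are counted among those other segments. The second exception was the joint label TRBV12-2+TRBV13-2, whose 80 contigs carried the V region of Trbv13-2 and which were not counted as members either.

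Barcodes were grouped by the coreceptor genes of the expression matrix. Of the 945 barcodes, 256 had Cd4 UMIs only (CD4-only, 27.1%), 513 had Cd8a or Cd8b1 UMIs only (CD8-only, 54.3%), 35 had both and 141 neither. The groups differed in depth, with a median of 3844 gene expression UMIs in CD4-only and 7290 in CD8-only barcodes. Cd4 was also the sparser marker, at a median of 2 UMIs in CD4-only barcodes against 12 Cd8a and Cd8b1 UMIs in CD8-only barcodes. UMIs of these genes in barcodes of another cell type were few. Among 82 barcodes with B cell and no CD3 genes, with a median of 3678 UMIs, 1 held a Cd4 UMI (1.22%, 0.0309 to 6.61) and 2 a Cd8a or Cd8b1 UMI (2.44%, 0.297 to 8.53). The shares over all barcodes with a TRB contig, at a median of 5065 UMIs, were 30.8% and 58.0%.

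TRBV12-1 and TRBV12-2 were found almost entirely in CD8-only barcodes. Together they were used by 91 of 513 CD8-only barcodes (17.7%, 14.5 to 21.3) and by 4 of 256 CD4-only barcodes (1.56%, 0.427 to 3.95), an 11.4-fold higher share with intervals far apart. No barcode with both coreceptors used either of them, and 5 barcodes with neither did. Put the other way, 95.8% (89.6 to 98.8) of the TRBV12 barcodes in these 2 groups were CD8-only. For all TRB barcodes in these 2 groups it was 66.7% (63.3 to 70.0). The ratio of shares was 19.7 with contigs of at least 3 UMIs only, and 2.82 with the joint TRBV12-2+TRBV13-2 label counted as TRBV12-2 (8.98% of CD4-only and 25.3% of CD8-only barcodes), and the intervals were apart in both.

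Each TRBV12 segment showed this by itself. TRBV12-1 was carried by 38 CD8-only barcodes (7.41%, 5.30 to 10.0) and by 2 CD4-only barcodes (0.781%, 0.0948 to 2.79), a 9.48-fold higher share. TRBV12-2 was carried by 53 CD8-only barcodes (10.3%, 7.84 to 13.3) and by 2 CD4-only barcodes (0.781%, 0.0948 to 2.79), a 13.2-fold higher share. TRBV12-2 ranked 1st among 22 V labels in CD8-only and 19th in CD4-only barcodes, and TRBV12-1 ranked 6th and 19th. These are ranks of labels and not of sequences. Trbv13-2 sequences were split over the labels TRBV12-2+TRBV13-2 and TRBV13-2, with 40 and 17 CD8-only barcodes.

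Over all TRBV segments with at least 10 barcodes, 20 in number, intervals of the CD4-only and CD8-only shares did not overlap for 4 (20%). These were TRBV12-1 and TRBV12-2, higher in CD8-only, and the non-members TRBV29, higher in CD8-only, and TRBV31, the segment with the highest share in CD4-only barcodes (30 barcodes, 11.7%). A share at least 1.5 times higher in CD8-only barcodes was found for 6 of the 20 (30%) and at least 1.5 times higher in CD4-only barcodes for 7 (35%). Among the 6 member segments with contigs, these counts were 2 (TRBV12-1 and TRBV12-2) and 2 (TRBV2 and TRBV5), which is near the share over all segments.

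The segments TRBV1 to TRBV5 were spread over both lineages. TRBV5 had its highest share in CD4-only barcodes, with 24 of 256 (9.38%, 6.10 to 13.6) against 27 of 513 CD8-only barcodes (5.26%, 3.50 to 7.57). By label it ranked 2nd in the former and 8th in the latter, with Trbv13-2 sequences split over 2 labels (19 and 7 CD4-only barcodes). TRBV2 was used by 19 CD4-only barcodes (7.42%, 4.53 to 11.4) and 17 CD8-only barcodes (3.31%, 1.94 to 5.25), which is 2.24 times higher in CD4-only. Intervals overlapped for both segments, so these shares are given as values and not as a difference.

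TRBV3 was found in 16 CD4-only barcodes (6.25%, 3.61 to 9.95) and 23 CD8-only barcodes (4.48%, 2.86 to 6.65). TRBV1 was the member of this group with a higher share in CD8-only, at 41 barcodes (7.99%, 5.80 to 10.7) against 17 CD4-only barcodes (6.64%, 3.92 to 10.4). The Trbv4 sequences with the TRBV10 label were carried by 20 CD4-only barcodes (7.81%, 4.84 to 11.8) and 26 CD8-only barcodes (5.07%, 3.34 to 7.34). Intervals overlapped for all 3 sequences.

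**Figure D1:**
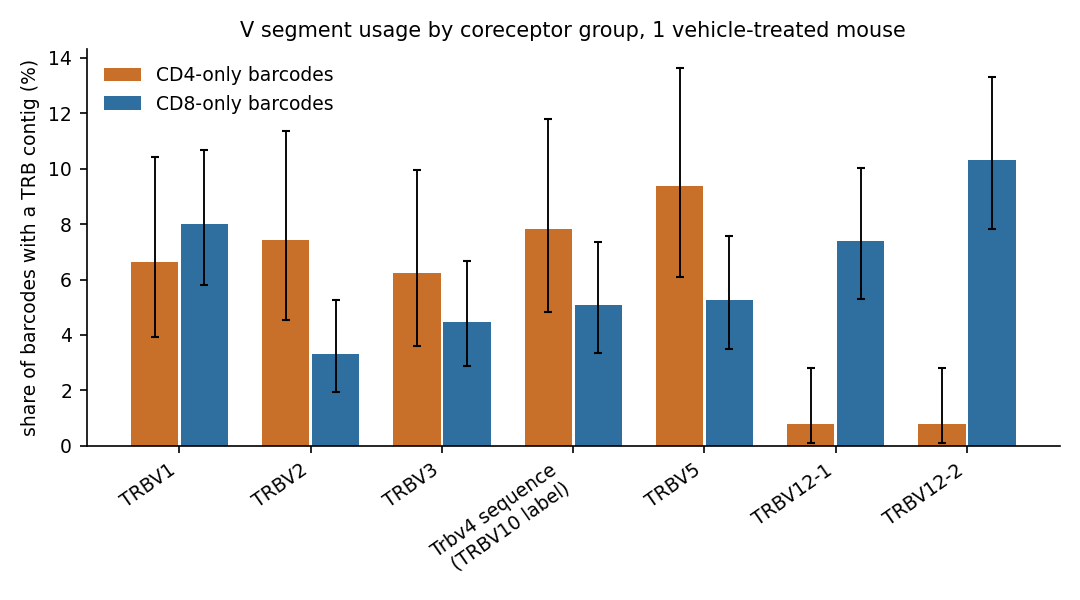
Share of barcodes with a TRB contig that use each V segment (y axis, percent), in 256 CD4-only (orange) and 513 CD8-only (blue) barcodes of 1 mouse; bars are shares and lines are exact 95% Clopper-Pearson intervals. TRBV12-1 and TRBV12-2 stand at 7.41% and 10.3% in CD8-only against 0.781% each in CD4-only barcodes, while the intervals of every other segment shown overlap.

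Counted together, the 7 segments were used by 79 CD4-only barcodes (30.9%) and 199 CD8-only barcodes (38.8%), with overlapping intervals. Within this sum, which holds no Trbv4 sequence, TRBV1 to TRBV5 made up 29.3% (23.8 to 35.3) of CD4-only and 21.1% (17.6 to 24.8) of CD8-only barcodes. The Trbv4 sequences with the TRBV10 label also had the higher share in CD4-only barcodes (7.81% against 5.07%), so leaving them out narrows the gap. Intervals for TRBV1 to TRBV5 with these sequences were not computed. A high share of TRBV12 lowers all other shares in CD8-only barcodes, so TRBV1 to TRBV5 were also counted among barcodes without TRBV12. They then made up 75 of 252 CD4-only barcodes (29.8%, 24.2 to 35.8) and 108 of 422 CD8-only barcodes (25.6%, 21.5 to 30.0). The Trbv4 sequences, again not included, stood at 7.94% and 6.16%. In this count TRBV5 stood at 9.52% against 6.40% and TRBV2 at 7.54% against 4.03%, with overlapping intervals. Among non-member labels with at least 20 barcodes, the ratio of CD8-only to CD4-only share nearest to that of the 7 segments together was found for TRBV13-2 (1.21) and TRBV13-3 (1.12). The joint label TRBV12-2+TRBV13-2, which also carries Trbv13-2 sequences, stood at 1.05.

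The UMIs of the coreceptor genes were also summed without a call per barcode. These are the same UMIs that define the groups, so the sums describe the grouping and are no separate check of it. TRBV12-1 barcodes held 0 to 33 Cd8a and Cd8b1 UMIs (median 13) and at most 2 Cd4 UMIs, and TRBV12-2 barcodes held 0 to 23 (median 10) and at most 2. Over the 100 TRBV12 barcodes, 1100 Cd8a and Cd8b1 UMIs and 7 Cd4 UMIs were counted. The 223 barcodes with TRBV1, TRBV2, TRBV3 or TRBV5 held 1390 and 178, so that Cd4 UMIs were far more frequent beside these segments although the barcodes were shallower (median 4854 against 6629.5 UMIs). The highest Cd4 count in a barcode was 4 for TRBV1, 6 for TRBV2, 6 for TRBV3 and 5 for TRBV5. In the opposite direction, the highest Cd8a and Cd8b1 count lay between 24 and 27 for these 4 segments.

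**Figure D2:**
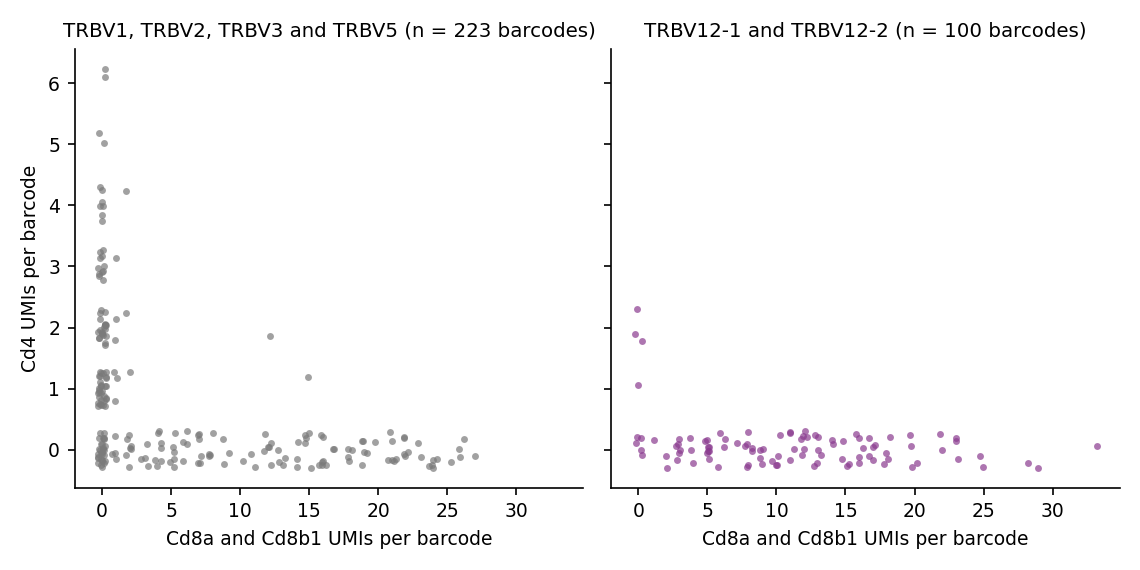
Cd4 UMIs (y axis) against the sum of Cd8a and Cd8b1 UMIs (x axis) per barcode, for 223 barcodes with TRBV1, TRBV2, TRBV3 or TRBV5 (left, grey) and 100 barcodes with TRBV12-1 or TRBV12-2 (right, purple); each point is 1 barcode, moved by a small random amount to separate equal values. In the right panel 4 barcodes hold Cd4 UMIs, with at most 2 UMIs each, and none holds UMIs of both coreceptors.

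The 4 CD4-only barcodes with TRBV12 each carried another receptor. Their CDR3 sequences are shown with capitals for bases that continue neither the germline V nor the germline J segment.
TRBV12-1, TRBJ2-2: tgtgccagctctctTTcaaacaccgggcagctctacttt
TRBV12-1, TRBJ1-2: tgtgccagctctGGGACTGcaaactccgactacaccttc
TRBV12-2, TRBJ1-2: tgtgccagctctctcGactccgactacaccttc
TRBV12-2, TRBJ2-2: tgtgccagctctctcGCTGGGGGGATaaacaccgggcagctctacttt
They held 1 or 2 Cd4 UMIs, 0 Cd8a or Cd8b1 UMIs and 0 UMIs of Foxp3, the transcription factor of regulatory T cells. The first 3 rested on contigs of 2, 2 and 3 UMIs and had 2076, 2590 and 2583 gene expression UMIs, and the fourth on a contig of 10 UMIs with 4688. The matching Trbv12 gene was present in the expression matrix of all 4, with 3, 3, 4 and 7 UMIs. In the barcode with TRBV12-2 and TRBJ1-2 ribosomal protein genes took 1.51% of UMIs. None of the 4 carried another TRB contig.

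The expression matrix holds the V segments as genes and was not used to choose members, so contig labels were compared with it. In barcodes with 1 TRB contig and at least 2 UMIs of a leading Trbv gene, that gene was the contig's segment in 848 of 855 (99.2%). The named segment took between 87.4% (TRBV2) and 97.6% (TRBV12-2) of the Trbv UMIs of the members' barcodes. The close copies were separated as well: TRBV12-1 barcodes held 275 Trbv12-1 and 0 Trbv12-2 UMIs, and TRBV12-2 barcodes held 409 Trbv12-2 and 0 Trbv12-1 UMIs.

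When barcodes were grouped by the leading Trbv gene of the matrix in place of the contig, Trbv12-1 or Trbv12-2 led in 91 of 528 CD8-only (17.2%) and in 4 of 255 CD4-only barcodes (1.57%), a ratio of 10.99. The TRBV10 label also followed Trbv4 here. Its 55 barcodes with 1 TRB contig held 323 Trbv4 and 0 Trbv10 UMIs, with a Trbv4 UMI in 53.

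**Figure D3:**
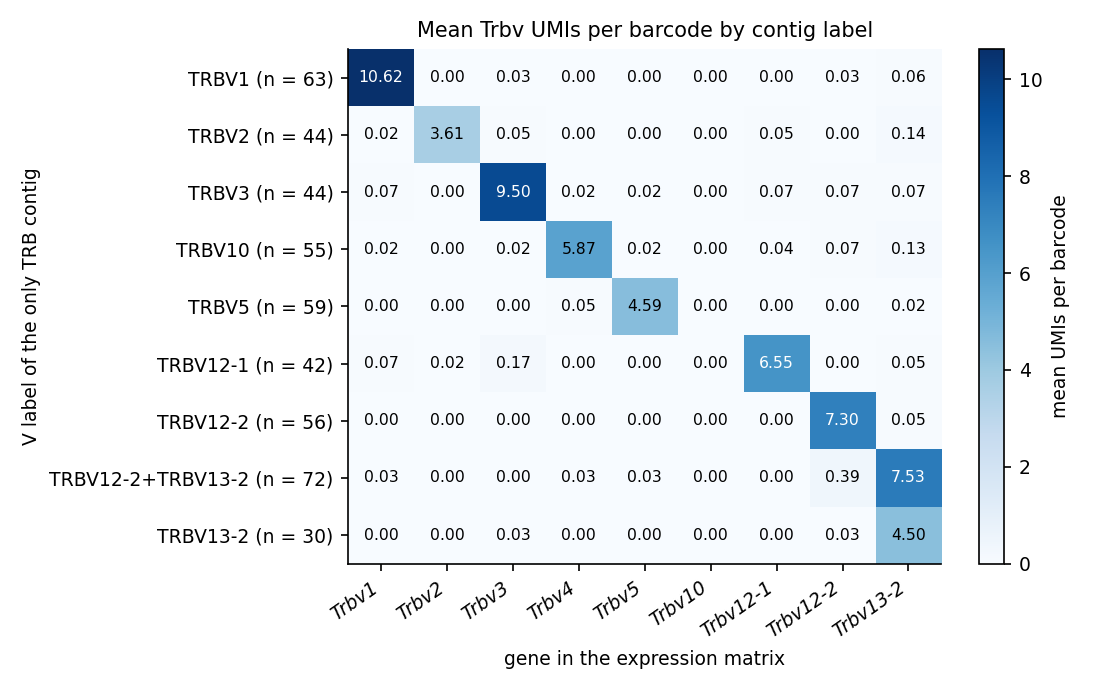
Mean UMIs per barcode of Trbv genes in the expression matrix (columns) for barcodes with 1 TRB contig, by the V label of that contig (rows, with the number of barcodes); darker blue is a higher mean, printed in each cell. Each member label has its highest mean at its own gene, from 3.61 UMIs for TRBV2 to 10.62 for TRBV1, and the TRBV10 label at Trbv4 (5.87).

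The sequencing depth behind these labels differed between segments. Member contigs had a median of 8 UMIs and a range of 1 to 55, with TRBV1 at a median of 11 and TRBV2 at 4.5. Of the 44 TRBV2 contigs 12 rested on fewer than 3 UMIs, against 35 of all 324 member contigs. A productive TRA chain was found in 257 of the 323 barcodes (79.6%).

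TRBJ segments were compared next, since each V segment can join any of them. All 12 TRBJ segments found in the data were joined to members in both lineages. Intervals of the CD4-only and CD8-only shares overlapped for each, so that 0 of 12 (0%) were apart. The most frequent was TRBJ2-7 in CD4-only barcodes, with 19 of 80 contigs (23.8%) against 27 of 199 in CD8-only (13.6%). In CD8-only barcodes it was TRBJ2-1, with 29 contigs (14.6%) against 7 in CD4-only (8.75%). TRBJ1-2 stood at 11 contigs in CD4-only (13.8%, 7.07 to 23.3) and 8 in CD8-only (4.02%, 1.75 to 7.77), where the intervals overlap by less than 1 percentage point.

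TRBJ1-1 followed at 16.3% in CD4-only and 11.1% in CD8-only contigs, and TRBJ1-4 at 6.25% and 10.6%. The remaining segments ranged from 2.5% to 5% in CD4-only and from 2.01% to 9.55% in CD8-only contigs. The TRBJ2 cluster as a whole was used by 52.5% (41.0 to 63.8) of CD4-only and 61.3% (54.2 to 68.1) of CD8-only member contigs. For contigs of other TRBV segments these shares were 59.6% and 61.9%.

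**Figure D4:**
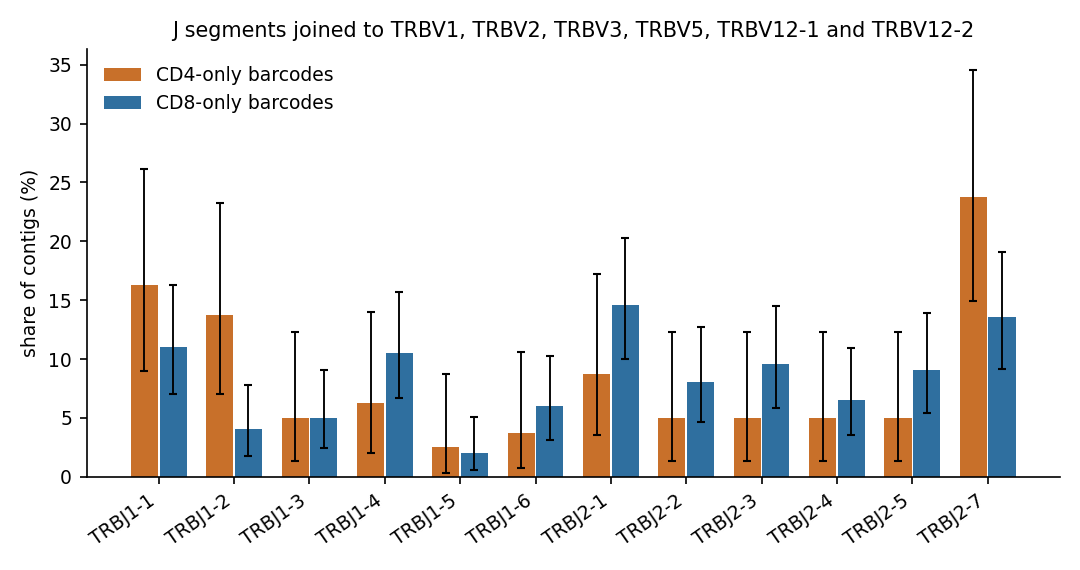
Share of member contigs joined to each TRBJ segment (y axis, percent), in 80 contigs of CD4-only (orange) and 199 contigs of CD8-only barcodes (blue); bars are shares and lines are exact 95% Clopper-Pearson intervals. The intervals overlap for all 12 TRBJ segments, and the largest gaps are at TRBJ2-7 (23.8% against 13.6%) and TRBJ1-2 (13.8% against 4.02%).

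TRBV3 was the member in a V and J pair whose intervals were apart. In CD4-only barcodes 6 of its 16 contigs were joined to TRBJ1-1 (37.5%, 15.2 to 64.6), and in CD8-only barcodes none of 23 was (0 to 14.8). This was 1 of 2 V and J pairs with intervals apart among 144 pairs (1.39%), and the intervals overlapped under 5 of the 8 alternative settings, such as calls after thinning, where 5 of 15 CD4-only contigs (33.3%, 11.8 to 61.6) and 0 of 22 CD8-only contigs (0 to 15.4) were joined to it. TRBJ2 segments were joined to 4 of the 16 CD4-only TRBV3 contigs (25%, 7.27 to 52.4) and to 17 of the 23 CD8-only contigs (73.9%, 51.6 to 89.8), with intervals that just overlap.

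Other members had these leading J segments. TRBV1 was joined most often to TRBJ2-1 in CD4-only barcodes (5 of 17) and to TRBJ1-4 in CD8-only barcodes (9 of 41), where 8 of the 9 belonged to 1 clone. TRBV2 was led by TRBJ2-7 in CD4-only (4 of 19) and TRBJ1-1 in CD8-only barcodes (5 of 17). TRBV5 was led by TRBJ2-7 in both, at 7 of 24 and 6 of 27. TRBV12-1 in CD8-only barcodes was led by TRBJ2-7 (7 of 38), and TRBV12-2 by TRBJ1-6 (9 of 53), all 9 from 1 clone.

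Constant regions followed the genomic order of the locus. Of the member contigs 125 joined a TRBJ1 segment to TRBC1 and 198 a TRBJ2 segment to TRBC2, 1 had no constant region call and none crossed. A D segment was not called in 260 of the 324 contigs. TRBD1 was called in 42 and TRBD2 in 22, and TRBD2, which lies downstream of the TRBJ1 cluster, was never found with a TRBJ1 segment.

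CDR3 length was compared in amino acids, counting both anchor residues. Members had a median of 14 and a mean of 14.2 (SD 1.35 over 324 contigs), with a range of 10 to 18. A CDR3 of at least 15 amino acids was found in 143 of the 324 contigs (44.1%, 38.7 to 49.7) and in 212 of 657 contigs of other segments (32.3%, 28.7 to 36), with intervals apart. Taken singly, TRBV1 (55.4%, 42.5 to 67.7) and TRBV5 (49.2%, 36.4 to 62.1) were apart from the other segments. The intervals of TRBV2 (50%), TRBV12-2 (38.6%), TRBV3 (36.5%) and TRBV12-1 (30.2%) overlapped that of the other segments. With each clonotype counted once, TRBV5 (47.5%, 34.6 to 60.7) overlapped the other segments (31.5%, 27.9 to 35.3) too. TRBV1 (50%, 36.6 to 63.4) remained apart. Members carried on average 14.4 V bases in CDR3 against 13.2 for other segments, while the bases between V and J averaged 9.85 and 10.1.

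Member CDR3s were longer in CD8-only barcodes by value, with intervals that overlap. At least 15 amino acids were found in 97 of 199 CD8-only contigs (48.7%, 41.6 to 55.9) and in 27 of 80 CD4-only contigs (33.8%, 23.6 to 45.2), at mean lengths of 14.38 and 13.99. J bases averaged 19.1 in CD8-only and 17.7 in CD4-only contigs, and the bases between V and J 10.0 and 9.38. V bases went the other way, at 14.1 in CD8-only and 14.9 in CD4-only contigs. In other TRBV segments the shares of long CDR3s were 34.2% in CD8-only and 27.3% in CD4-only contigs, while J bases averaged 17.9 and 18.4.

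By segment, the share of long CDR3s was higher in CD8-only contigs for the 4 members with at least 10 contigs in each group and for 9 of 13 segments in all. It was equal in both groups for TRBV20 and TRBV26, and higher in CD4-only contigs for TRBV13-3 and TRBV19. The intervals were apart for 1 of the 13 (7.69%), which was TRBV3, with 13 of 23 CD8-only contigs (56.5%, 34.5 to 76.8) and 1 of 16 CD4-only contigs (6.25%, 0.158 to 30.2). They overlapped for TRBV3 when a coreceptor call needed at least 2 UMIs (8.33%, 0.211 to 38.5, in CD4-only and 59.1%, 36.4 to 79.3, in CD8-only) and when it was made after thinning to 2500 UMIs (13.3%, 1.66 to 40.5, in CD4-only). TRBV1 stood at 61.0% in CD8-only and 35.3% in CD4-only contigs, and 8 of its 41 CD8-only contigs came from 1 clone with a CDR3 of 15 amino acids. TRBV5 stood at 59.3% and 37.5%, and TRBV2 at 52.9% and 52.6%. The TRBV12 segments had 37.4% in CD8-only contigs and too few CD4-only contigs for a comparison.

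**Figure D5:**
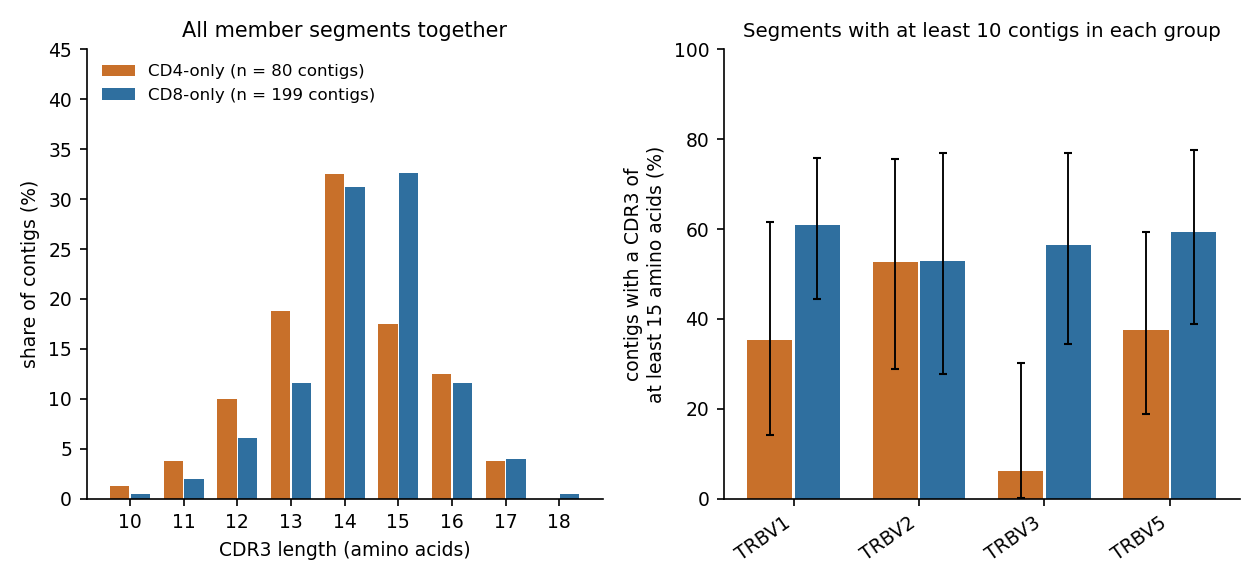
Left, share of member contigs (y axis, percent) at each CDR3 length in amino acids (x axis), in 80 CD4-only (orange) and 199 CD8-only contigs (blue); right, share of contigs with at least 15 amino acids for TRBV1, TRBV2, TRBV3 and TRBV5, with exact 95% Clopper-Pearson intervals. TRBV3 is the segment whose intervals are apart, at 6.25% in CD4-only against 56.5% in CD8-only contigs.

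The 323 member barcodes formed 299 of the authors' clonotypes. Of these clonotypes 10 held at least 2 barcodes and together 34 barcodes (10.5%, 7.401 to 14.4), against 40 of 636 barcodes (6.29%, 4.53 to 8.47) with other TRBV segments, with overlapping intervals. The other segments include the TRBV10 label, with 9 of 58 barcodes (15.5%, 7.35 to 27.4) in such clonotypes. This is above both shares, so counting these Trbv4 sequences as members would raise the member share and lower the other. Whether the intervals then overlap was not tested. Some of the 636 barcodes also carried a member, since 622 had another TRBV segment and no member. TRBV12-2 had the highest value, with 15 of 57 barcodes in such clonotypes (26.3%, 15.5 to 39.7). TRBV1 had 8 of 65 (12.3%), TRBV12-1 had 5 of 43 (11.6%) and TRBV3 had 0 of 52 (0 to 6.85). The CDR3 sequences of the 3 clonotypes with at least 3 barcodes are shown with capitals for the bases that continue neither the germline V nor the germline J segment.
TRBV12-2, TRBJ1-6: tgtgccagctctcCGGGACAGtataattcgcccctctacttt
TRBV1, TRBJ1-4: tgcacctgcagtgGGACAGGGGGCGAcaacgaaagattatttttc
TRBV12-2, TRBJ2-7: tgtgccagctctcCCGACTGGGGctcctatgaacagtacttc
All barcodes of these 3 clonotypes were CD8-only, with 9, 8 and 4 barcodes and no Cd4 UMI. Over their barcodes 84, 119 and 37 Cd8a and Cd8b1 UMIs were counted. In both TRBV12-2 clones the V segment was trimmed by 2 bases. Among the 299 distinct CDR3 nucleotide sequences of members, 1 was found in more than 1 clonotype.

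The lineage difference of TRBV12 was also present when each clonotype was counted as 1 per group. Then TRBV12-1 and TRBV12-2 made up 77 of 476 CD8-only (16.2%, 13.0 to 19.8) and 4 of 250 CD4-only clonotypes (1.60%, 0.438 to 4.05).

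Genes of T cell state were compared between CD8-only barcodes with a member and CD8-only barcodes with other TRBV segments, as the share of barcodes with a UMI after thinning each barcode to 2500 UMIs. Of 25 genes from lists of naive, memory, effector, regulatory and inhibitory genes, 3 (12%) were higher with intervals apart in member barcodes and 1 (4%) was lower. For the 90 barcodes with TRBV12-1 or TRBV12-2 alone the counts were again 3 (12%) higher and 1 (4%) lower, and none of 25 was apart for the 104 barcodes with TRBV1, TRBV2, TRBV3 or TRBV5.

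In TRBV12 barcodes Ccl5, a chemokine of memory and effector CD8 T cells, was found in 60.0% (49.1 to 70.2) against 35.6% (30.3 to 41.3) of 306 barcodes with other segments. Itgb1, the integrin β1 chain, was found in 42.2% (31.9 to 53.1) against 19.3% (15.01 to 24.2). S100a4, a calcium-binding protein expressed in memory T cells, was found in 20% (12.3 to 29.8) against 6.54% (4.04 to 9.91). Lef1, a transcription factor of naive T cells, was lower at 58.9% (48.0 to 69.2) against 75.8% (70.6 to 80.5). In 61 thinned barcodes with B cell genes, Ccl5 had a UMI in 13.1%, Itgb1 in 11.5%, Lef1 in 8.20% and S100a4 in none, all below the shares above by value. The intervals there for Itgb1 (4.74 to 22.2) and S100a4 (0 to 5.87) overlap those of the barcodes with other segments.

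Fewer of these genes were apart when clones were counted as 1. With 1 barcode per clonotype, Ccl5 (52.6% against 33.4%) and Itgb1 (35.5% against 19.1%) remained apart in TRBV12 barcodes, while S100a4 (13.2% against 6.49%) and Lef1 (61.8% against 77.8%) overlapped. Over all 7 segments, the single gene still apart with 1 barcode per clonotype was Lef1.

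Of all 25 genes, 20 had a share higher by value in TRBV12 barcodes, with a median difference of 5.43 percentage points. By list, 9 of the 10 CD8 memory and effector genes were higher, with a median of 6.63 percentage points. The 4 inhibitory genes (median 1.73) and 2 regulatory genes (2.745) were all higher as well. The 4 genes Itgb1, S100a4, Cd44 and Lgals1, listed for CD4 memory, were all higher by value, with a median of 14.6 percentage points and 2 of them apart. The list of 5 naive genes was lower for 4, with a median of -7.97 percentage points. In CD8-only barcodes with TRBV1, TRBV2, TRBV3 or TRBV5 all 5 naive genes were lower by value as well. Their median was -5.19 percentage points and none was apart. The memory list was higher there for 3 of 4, with a median of 5.36 percentage points, beside 15 of all 25 genes (1.97). By segment, the memory list was higher for 4 of 4 genes in TRBV2, with 17 barcodes and a median of 14.9 percentage points. It was higher for 4 of 4 in TRBV5 (1.91) and for 3 of 4 in TRBV1 (8.14). Over all lists, 14 of 24 genes were higher for TRBV2, 15 of 24 for TRBV5 and 15 of 25 for TRBV1. TRBV3 went the other way, with 4 of 4 memory genes lower (-6.09) and 23 of 24 genes over all lists. The naive list had medians of -12.1 for TRBV1, -5.23 for TRBV2, -7.81 for TRBV3 and -1.74 for TRBV5. Among the granzymes, the killing enzymes of CD8 T cells, Gzma stood at 8.89% against 3.27%, Gzmb at 10% against 4.58% and Gzmk at 10% against 10.8%, with overlapping intervals. Ly6c2, a surface protein of memory CD8 T cells, was found in 67.8% (57.1 to 77.3) against 52.0% (46.2 to 57.7), where the intervals overlap. Xcl1, a chemokine of activated CD8 T cells, was apart for TRBV12-1 alone, in 5 of 38 barcodes (13.2%, 4.41 to 28.1) against 1.96% (0.723 to 4.22), and stood at 3.85% for TRBV12-2. It was the 1 gene of 25 apart for TRBV12-1. For TRBV12-2 there were 3 of 25, and for each of TRBV1, TRBV2, TRBV3 and TRBV5 there were 0.

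Ikzf2, which encodes Helios, showed how much 1 barcode can add to a UMI sum. In CD8-only TRBV12 barcodes 58 UMIs were counted, 21 of them in 1 barcode, and 12 of 91 barcodes held any. In 314 CD8-only barcodes with other segments 30 UMIs lay in 18 barcodes (5.73%, 3.43 to 8.91), and the intervals of the 2 shares overlap.

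In CD4-only barcodes no state gene was apart between 63 thinned member barcodes and 146 with other segments (0 of 22 higher, 0%, and 0 of 22 lower, 0%). Ccl5 was found in 15.9% against 8.22% and S100a4 in 15.9% against 17.1%. In the thinned barcodes with B cell genes, Ccl5 stood at 13.1% (5.84 to 24.2), with an interval that overlaps both CD4-only intervals. S100a4 had no UMI there (0 to 5.87). Foxp3 had no UMI in the 63 (0 to 5.69), against 4.11% in barcodes with other segments. Before thinning, 2 of 75 CD4-only barcodes with TRBV1, TRBV2, TRBV3 or TRBV5 held a Foxp3 UMI (2.67%). In CD4-only barcodes with other segments 11 of 177 did (6.2%).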

How the data were processed

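The 1 vehicle library was processed by the authors with the Cell Ranger pipeline. Per the labels the build was GRCm38, and the deposited matrix, in Cell Ranger's format version 4, holds raw UMI counts per gene and barcode (32285 genes, 12855001 UMIs) without a cell filter or normalization. The deposited contig table (6687 contigs) gives UMI counts, V, D, J and C labels, CDR3 and clonotype. The contig caller's reference was not given in the sources used here. Member segments, gene lists and comparisons were chosen with earlier results of these data known.

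Coreceptor groups needed at least 1 UMI of Cd4, or of Cd8a and Cd8b1, and none of the other. Called barcodes (1600) had more UMIs than the 99th percentile of the top 3000 barcodes divided by 10. No doublet caller was run. The most frequent J segments of each member, clonotypes of at least 3 barcodes, the 2 nearest non-members and state genes with at least 20 UMIs are named, and the 4 CD4-only TRBV12 barcodes and Ikzf2 were added after their values were seen. CDR3 bases were split by matching GENCODE vM39 transcripts, and the split was run on simulated data (2000 of 2000 junctions recovered). Each simulated junction began and ended with a base unlike the germline, so this recovery was fixed in advance. Added bases that equal the next germline base are counted as V or J bases, and how often this happened was not tested. Thinning used random seed 7. Python 3.11.15 was used with NumPy 2.4.6, pandas 2.3.3, SciPy 1.17.1, Biopython 1.88 and Matplotlib 3.10.9. Alternatives changed the coreceptor minimum, depth, cell limit, RNA quality, contig choice, contig UMIs, the unit counted and the V label.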

Additional observations from a re-analysis of the deposited data

Results flagged for a closer look

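These values come from contigs, barcodes or genes that the selection of productive TRBV1 to TRBV5 and TRBV12 contigs left out. In 75 called barcodes without a TRB contig and with a leading Trbv gene, Trbv12-1 or Trbv12-2 led in 6 of 37 CD8-only barcodes (16.2%, 6.19 to 32.0). They led in 0 of 19 CD4-only barcodes (0 to 17.65), which allows a share of up to 15.8%. These intervals overlap. Contigs labelled TRBV10 came with 323 Trbv4 UMIs in the expression matrix. Of 76 TRBV10-labelled contigs of cells with high confidence, 18 were not productive (23.7%, 14.7 to 34.8), against 10.7% of all TRB contigs and 6.90% of the members.

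Among barcodes with the joint TRBV12-2+TRBV13-2 label, 23 of 72 (31.9%, 21.4 to 44.0) held Trbv12-2 UMIs, 28 in all and at most 2 in a barcode. The share was 1 of 30 for the TRBV13-2 label (3.33%, 0.0844 to 17.2), 13 of 56 for TRBV13-3 (23.2%, 13.0 to 36.4) and 26 of 597 for other labels (4.36%, 2.86 to 6.32).

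Non-productive TRBV12-2 contigs numbered 3 in CD4-only barcodes, beside 2 productive ones, and 0 in CD8-only barcodes, beside 53 productive ones.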

How the results depend on the processing

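Of 200 values computed under 8 alternative settings, 198 stayed near the reported value. For shares this meant within its interval, and for the count of segments with intervals apart within 1.5 times that count. The other 2 were counts of 0, for long TRBV3 CDR3s in CD4-only barcodes with 1 TRB contig (0 of 13) and for TRBV12-1 in CD4-only barcodes with contigs of at least 3 UMIs (0 of 235). All settings draw on the same library, so they are no independent checks. Over these settings the ratio of the TRBV12 shares ranged from 8.80 to 19.7, with intervals apart in 8 of 8, and that of the 7 segments from 1.19 to 1.31, with overlap in all 8. Of 72 values under alternatives chosen after seeing the data, 8 moved, all through V labels. Counting the joint TRBV12-2+TRBV13-2 label as TRBV12-2 gave 8.98% of CD4-only and 25.3% of CD8-only barcodes for TRBV12 together (ratio 2.82, intervals apart), 8.20% and 18.1% for TRBV12-2, and 38.3% and 46.2% for the 7 segments. Counting the TRBV10 label as TRBV4 gave 38.3% and 43.5% for the 7 segments. Without low-ribosomal barcodes, 4 state genes were higher and 1 lower in TRBV12 barcodes. No paired analysis was possible because the vehicle group holds 1 library. The CD4-only shares of member contigs rest on 80 contigs, against 199 in CD8-only barcodes, and with 1 mouse the spread between mice is not known.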

Other observations

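Levels of the members' own genes in the expression matrix, as pooled UMIs per 10000 in barcodes with 1 TRB contig, were higher in CD4-only than in CD8-only barcodes for TRBV1, at 32.4 (27.8 to 37.5) against 16.5 (14.9 to 18.2). TRBV3 stood at 25.4 (21.6 to 29.7) against 10.8 (9.25 to 12.6), TRBV5 at 11.5 (9.44 to 13.9) against 7.30 (6.09 to 8.67) and TRBV2 at 8.49 (6.60 to 10.8) against 5.07 (3.93 to 6.44). Over all barcodes with a TRB contig, CD8-only barcodes were deeper (a median of 7290 against 3844 UMIs), and these levels are divided by all UMIs. Undivided, TRBV1 had 178 UMIs in 16 CD4-only and 404 in 40 CD8-only barcodes, and TRBV3 161 in 13 and 167 in 19. TRBV5 had 109 UMIs in 23 CD4-only and 129 in 25 CD8-only barcodes, and TRBV2 68 in 19 and 67 in 17. The part of depth in the levels was not tested.

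Trbc genes followed the constant region of the contig less sharply than Trbv genes followed the V label. The 122 member barcodes with a TRBC1 contig held 144 Trbc1 and 150 Trbc2 UMIs, and the 185 with a TRBC2 contig held 92 and 258. Trbc1 and Trbc2 are near-identical copies, and how reads were divided between them was not tested.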
